A study of Homo sapiens with 4 samples.

Results

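The laminin chain genes encode the alpha, beta and gamma subunits of the laminins. Here 9 of them were chosen by gene name, namely LAMA1, LAMA2, LAMA3, LAMA4, LAMA5, LAMB1, LAMB2, LAMB3 and LAMC1, out of 31907 gene names with a count in the series. All 9 had counts in every library and passed the filter on low counts, so no member was lost. The chain genes LAMB4 and LAMC3 are given beside them, which makes 11 chain genes described. The series holds 4 RNA-seq libraries of HGC-27, a human gastric cancer cell line, with 2 libraries of cells given PBS and 2 of cells given 200 ng/ml recombinant IL-17B (rIL-17B), all collected after 48 h. The PBS libraries are the only controls, and no group carries a genetic change. The labels do not say whether replicates came from separate cultures, so p-values measure the spread between these libraries, which may be technical.

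A laminin is a trimer of 1 alpha, 1 beta and 1 gamma chain that is assembled inside the cell. Laminins are part of the basement membrane, the thin matrix sheet under epithelia and around muscle, fat, nerve and vessels. The alpha chain carries the globular domains that bind integrins and dystroglycan. The gamma chain of LAMC1 enters most trimers, whereas LAMA3 and LAMB3 encode chains of the trimer that anchors epithelia such as skin through hemidesmosomes. LAMA1 is best known from the embryo, LAMA2 from muscle and nerve, LAMA4 from vessels and other mesenchymal tissue, and LAMA5 from epithelia and vessels of the adult.

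The 4 libraries held between 12888029 and 17555879 counts, so that 3 counts correspond to between 0.171 and 0.233 CPM (counts of a gene per 1e6 counts of its library). rIL-17B replicate 1 stood apart from the other 3 libraries. It had at most 3 counts for 342 genes that had at least 100 counts in each other library, and no other library had such genes. Over the tested genes, its counts gave a chi-square per degree of freedom of 139 against rIL-17B replicate 2, and that of the PBS libraries against each other was 3.66. The epithelial keratins KRT8 and KRT18 were abundant in all libraries, with 601 to 1457 and 165 to 355 CPM. The other defining epithelial markers were low, since EPCAM had 3.03 to 5.34, KRT19 0.0684 to 3.34 and CDH1 0.44 to 0.753 CPM. The 5 fibroblast markers COL1A1, COL1A2, PDGFRB, DCN and LUM summed to 14453 and 14288 CPM with PBS, to 269 CPM in rIL-17B replicate 1 and to 12294 CPM in rIL-17B replicate 2. None of the 5 was at 0 counts in any library. In the order named, they had 115523, 87731, 2633, 17738 and 6251 counts in PBS replicate 1. In rIL-17B replicate 1 these were 2993, 16, 498, 35 and 395 counts. The monocyte and leukocyte markers PTPRC, CD14, LYZ, CD68 and ITGAM summed to at most 5.47 CPM, although the labels' protocol text speaks of monocytes. Each laminin result below is therefore given per library, and fewer cells of a type and less RNA per cell cannot be told apart in bulk RNA.

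Levels of different chains were compared per length, as CPM per kb of annotated exon. Such levels assume that reads spread evenly along the exons, which was not tested. In PBS-treated HGC-27 cells, LAMC1 was the highest chain gene, with 96.7 and 101 CPM per kb in replicates 1 and 2. LAMB2 followed with 76.8 and 84.05 CPM per kb, and LAMB1 with 67.7 and 67.2 CPM per kb. These beta chains pair with the LAMC1 chain in most laminins, and the ranges of all 3 genes were separate in the PBS libraries with this length. With the length of the longest transcript, LAMB1 with 95.6 and 94.9 and LAMB2 with 92.9 and 101.7 CPM per kb overlapped, and their order turned in PBS replicate 1. LAMA4 was the highest alpha chain gene, with 33.5 and 33.3 CPM per kb. LAMA5 came next with 20.9 and 28.9 CPM per kb, the widest gap between PBS libraries among the members. LAMB3 had 15.4 and 16.1 CPM per kb. The low members were LAMA2 with 2.54 and 2.07, LAMA3 with 2.31 and 2.02 and LAMA1 with 1.59 and 1.70 CPM per kb, and the values of LAMA2 and LAMA3 overlapped. Of the chain genes outside the 9, LAMC3 had 6.33 and 6.55 CPM per kb. LAMB4 had 1, 1, 0 and 3 counts in PBS replicates 1 and 2 and rIL-17B replicates 1 and 2, at or under the floor in every library. The order of the 9 members was the same in both PBS libraries. In rIL-17B replicate 2 it differed only at the low end, where LAMA3 with 2.32 CPM per kb came before LAMA2 with 1.84. In rIL-17B replicate 1, LAMB1 came first with 36.7 CPM per kb, before LAMC1 with 34.1 and LAMB2 with 32.8, and LAMB3 with 24.6 came before LAMA5 with 23.1 and LAMA4 with 11.8.

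**Figure D1:**
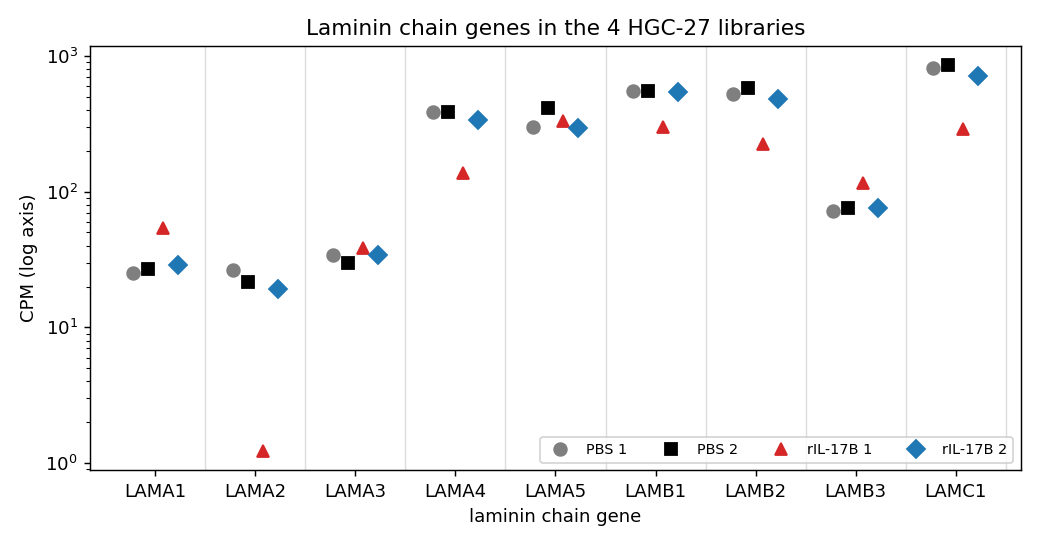
CPM of the 9 laminin chain genes on a log axis, with 1 symbol per library (PBS replicates 1 and 2, rIL-17B replicates 1 and 2). The PBS libraries and rIL-17B replicate 2 lie close together, and rIL-17B replicate 1 is lower for LAMA2, LAMA4, LAMB1, LAMB2 and LAMC1 and higher for LAMA1 and LAMB3.

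The start regions of the members differ in sequence. RefSeq windows on GRCh38.p14, from 250 bases before to 50 bases after an annotated start, were found for 8 of the 9 members (10 windows, of which 3 belong to LAMB3). Each window was searched on both strands for 4 motifs. The AP-1 site was searched as TGACTCA, the GC box as GGGCGG and the TATA box as TATAAA. The CCAAT box was searched by the letters of its name, and no motif can match inside another. The 4 windows printed here are from the beta and gamma chains LAMB1 and LAMC1 and from LAMA3 and LAMB3, which share a trimer. They were picked after the counts were seen, and a link between these letters and the counts was not tested. Capitals mark the matches, and each sequence is written 5′ to 3′ along its gene.
LAMA3 (chr18:23872770-23873069, plus strand): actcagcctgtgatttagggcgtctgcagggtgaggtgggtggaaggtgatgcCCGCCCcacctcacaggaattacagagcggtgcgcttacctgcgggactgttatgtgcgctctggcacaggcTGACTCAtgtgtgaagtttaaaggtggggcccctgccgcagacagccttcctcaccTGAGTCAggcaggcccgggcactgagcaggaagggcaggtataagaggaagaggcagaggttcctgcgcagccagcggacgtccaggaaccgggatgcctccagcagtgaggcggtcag
LAMB3 (chr1:209651325-209651624, minus strand): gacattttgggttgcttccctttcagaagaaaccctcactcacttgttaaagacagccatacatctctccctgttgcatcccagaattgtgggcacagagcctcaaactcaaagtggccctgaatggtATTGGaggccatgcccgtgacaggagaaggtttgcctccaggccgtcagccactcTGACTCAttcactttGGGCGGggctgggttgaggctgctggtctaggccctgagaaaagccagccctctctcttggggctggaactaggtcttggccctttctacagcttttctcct
LAMB1 (chr7:108003112-108003411, minus strand): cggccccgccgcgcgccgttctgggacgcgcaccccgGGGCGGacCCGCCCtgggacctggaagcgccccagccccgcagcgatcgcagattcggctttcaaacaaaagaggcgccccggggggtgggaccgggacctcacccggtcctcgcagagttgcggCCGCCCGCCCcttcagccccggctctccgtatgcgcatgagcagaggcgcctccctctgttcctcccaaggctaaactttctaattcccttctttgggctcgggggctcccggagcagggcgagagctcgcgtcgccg
LAMC1 (chr1:183023170-183023469, plus strand): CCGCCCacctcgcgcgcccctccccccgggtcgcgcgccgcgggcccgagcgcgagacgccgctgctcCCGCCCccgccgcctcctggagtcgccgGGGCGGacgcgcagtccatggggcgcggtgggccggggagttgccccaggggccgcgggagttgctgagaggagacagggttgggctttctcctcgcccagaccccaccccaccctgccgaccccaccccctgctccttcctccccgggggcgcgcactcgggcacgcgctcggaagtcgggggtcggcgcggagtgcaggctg
The LAMA3 window lies at an internal start, since the gene begins at 23689443 in GENCODE 29. So does the printed LAMB3 window, since that gene, on the minus strand, begins at 209652466. The LAMA3 window holds 2 AP-1 matches, which begin 125 and 69 bases before its start. The printed LAMB3 window holds 1, which begins 67 bases before its start. No other member window held an AP-1 match, and 4.95% of all 35116 windows held at least 1 and 0.222% at least 2. The LAMB3 window printed here also held 1 CCAAT box match, which 34.6% of all windows had. The other LAMB3 windows, which both cover 209652466, held 1 GC box each and no AP-1 match. GC boxes numbered 5 in the LAMA5 window, 4 in LAMB1, 3 in LAMC1 and 1 each in LAMB2, LAMA3 and the printed LAMB3 window, and 45.0% of all windows held at least 1. In LAMB1, 2 of the matches overlap and form 1 stretch of capitals. The LAMA2 and LAMA4 windows held none of the 4 motifs, and no member window held the TATA box letters, which 11.5% of all windows had. The GC content was 82.7% for LAMA5, 79.0% for LAMC1 and 71.0% for LAMB1, against a median of 58.7% over all windows, and lay between 51.3% and 61.7% for the windows of the other members. A match is a description of the letters and not a binding site.

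The comparison of rIL-17B with PBS asks which genes respond to the cytokine. No laminin chain gene reached the threshold of 0.05 on the adjusted p of edgeR's quasi-likelihood test, nor did any of the 16361 genes tested (0%). At an unadjusted p under 0.05 there were 0 members and 226 of all genes (1.38%), and DESeq2 called 0 members and 0 genes. The fitted log2 fold change was above 0 for 3 members and below 0 for 6, against 7753 and 8608 of all genes tested. Its median was -0.43 over the 9 and -0.03 over all genes tested. The adjusted p of the 9 members lay between 0.661 and 0.698. Both rIL-17B libraries were lower than both PBS libraries, on CPM by library total, for 5 of 9 members, and 27.5% of all genes tested did the same. They were higher for 2 of 9 members, against 31.5% of all genes. With TMM factors these counts were 6 lower (30.3% of all genes) and 1 higher (28.6%), and with upper-quartile scaling 5 lower (31.4%) and 1 higher (27.2%). Set against the PBS mean without a test, rIL-17B replicate 1 was at least 2-fold lower for LAMA2, LAMA4, LAMB2 and LAMC1, 4 of 9 members, against 20.7% of all genes. It was at least 2-fold higher for LAMA1, 1 of 9, against 4.14% of all genes. In rIL-17B replicate 2, no member was 2-fold lower or higher, against 2.08% and 0.538% of all genes. The PBS libraries were at least 2-fold apart for 0 members and 3.15% of all genes.

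LAMC1 on chromosome 1 (183023460 to 183145592, GENCODE 29 on GRCh38, ENSG00000135862.5), which encodes the common gamma chain, had 12933 and 10980 counts in the PBS libraries against 4191 and 12548 counts in rIL-17B replicates 1 and 2. This corresponds to 813, 852, 287 and 715 CPM, or a mean of 833 ± 27.4 CPM over the PBS libraries and of 501 ± 303 CPM over the rIL-17B libraries (SD, n = 2). Both rIL-17B libraries lay under both PBS values, and under the PBS mean by 2.90-fold in replicate 1 and 1.16-fold in replicate 2. The log2 fold change was -0.77 (SE 0.54, adjusted p = 0.661 from edgeR's test). The gene overlaps the antisense gene LAMC1-AS1, which had 11 to 28 counts per library. Because the strand used in counting is not given in the sources used here, reads of such pairs cannot be told apart.

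The genes most like LAMC1 over the 4 libraries were the collagen gene COL16A1, SH3YL1 and CERCAM. Likeness was the root mean square difference in log2(CPM + 0.5) after each gene was centred on its mean, over 9988 genes with a mean of at least 10 CPM, and it was 0.00895 for COL16A1, with 209, 217, 73.4 and 186 CPM. It was 0.019 for SH3YL1 and 0.02 for CERCAM. Among the members, LAMA4 came closest and ranked 8 of 9988 with 0.033, followed by LAMB2 at rank 135 and LAMB1 at rank 557. The likeness rests on 4 points, and the low value of rIL-17B replicate 1 is shared by many genes.

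LAMA4 on chromosome 6 (112108760 to 112254939, ENSG00000112769.18) encodes an alpha chain of vessels and mesenchymal tissue. It had 6159 and 4962 counts in the PBS libraries against 1999 and 5949 counts in rIL-17B replicates 1 and 2, which is 387, 385, 137 and 339 CPM. The PBS libraries were nearly equal (386 ± 1.58 CPM, SD, n = 2), and rIL-17B replicate 1 was 2.82-fold and replicate 2 1.14-fold lower than their mean. The log2 fold change was -0.74 (SE 0.54, adjusted p = 0.661 from edgeR's test).

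Within a library, LAMA4 kept a nearly fixed proportion to LAMC1. There were 0.476 and 0.452 LAMA4 counts per LAMC1 count with PBS and 0.477 and 0.474 with rIL-17B. This ratio does not depend on library size. Over the 36 pairs of members it had the smallest range over the 4 libraries, 0.08 on the log2 scale. The next smallest were LAMA4 with LAMB2 (0.28) and LAMB2 with LAMC1 (0.28), and the largest was LAMA1 with LAMA2 (5.52). Without rIL-17B replicate 1, LAMB2 with LAMC1 had the smallest range (0.06), followed by LAMA4 with LAMC1 (0.08) and LAMB1 with LAMB3 (0.08, against 1.56 over the 4 libraries). The pair of LAMA4 and LAMC1 was singled out after its values were seen, and its genes lie on different chromosomes.

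**Figure D2:**
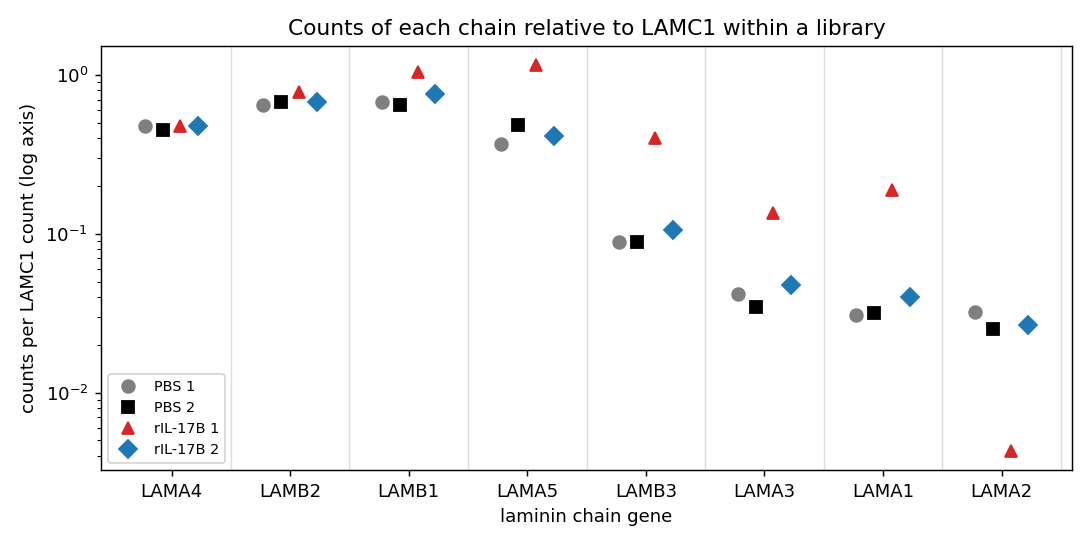
Counts of each laminin chain gene divided by the LAMC1 count of the same library, on a log axis, with 1 symbol per library. For LAMA4 the 4 symbols lie between 0.452 and 0.477, whereas for the other members rIL-17B replicate 1 lies above the other libraries, or below them for LAMA2.

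Both major beta chains were also lower in rIL-17B replicate 1. LAMB2 on chromosome 3 (49121114 to 49133118, ENSG00000172037.13), a beta chain of the kidney filter and the nerve-muscle synapse, had 8385 and 7436 counts in the PBS libraries against 3293 and 8475 counts with rIL-17B. In CPM these were 527, 577, 225 and 483, so that both rIL-17B libraries lay under both PBS libraries (log2 fold change -0.69, SE 0.47, adjusted p = 0.661 from edgeR's test). LAMB1 on chromosome 7 (107923799 to 108003255, ENSG00000091136.13), a widely used beta chain, had 8769, 7053, 4370 and 9550 counts in the same order. Its CPM were 551, 547, 299 and 544, and rIL-17B replicate 2 was within 1.01-fold of the PBS mean. For LAMB1 the log2 fold change was -0.43 (SE 0.38, adjusted p = 0.665 from edgeR's test). LAMB1 overlaps DLD on the other strand, which had 1148 to 1640 counts, while LAMB2 overlaps no annotated gene. There were 0.678 and 0.642 LAMB1 counts per LAMC1 count with PBS, 1.04 in rIL-17B replicate 1 and 0.761 in replicate 2, so the beta chain gene did not keep the proportion that LAMA4 kept.

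LAMA2 on chromosome 6 (128883141 to 129516569, ENSG00000196569.12) encodes the alpha chain of muscle laminin, which is defective in a congenital muscular dystrophy. It had 418 and 277 counts with PBS, 18 counts in rIL-17B replicate 1 and 334 in replicate 2, or 26.3, 21.5, 1.23 and 19.0 CPM. Replicate 1 was 19.4-fold lower than the PBS mean, the widest gap among the members, and replicate 2 was 1.26-fold lower, while PBS replicate 2 was at 0.818 of PBS replicate 1. The log2 fold change was -1.25 (SE 1.33, adjusted p = 0.687 from edgeR's test). The ratio of rIL-17B replicate 1 to PBS was lower for only 3.59% of all genes tested. The genes most like LAMA2 were CFI, a complement regulator, with a root mean square log2 difference of 0.042, ARMCX6 with 0.048 and ERAP2, a peptidase of antigen processing, with 0.065.

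In contrast, 3 members had their highest value in rIL-17B replicate 1. LAMA1 on chromosome 18 (6941744 to 7117814, ENSG00000101680.14), the embryonic alpha chain, had 401 and 347 counts in the PBS libraries against 793 and 504 counts with rIL-17B. Its 25.2 and 26.9 CPM with PBS lay under the 54.3 and 28.7 CPM with rIL-17B, which was 2.08-fold above the PBS mean in replicate 1 and 1.10-fold in replicate 2. The log2 fold change was 0.58 (SE 0.31, adjusted p = 0.661 from edgeR's test), and 98.1% of all genes tested had a lower ratio in replicate 1. LAMB3 on chromosome 1 (209614870 to 209652466, ENSG00000196878.14), a chain of the epithelial anchoring laminin, had 1147 and 975 counts in the PBS libraries against 1683 and 1324 with rIL-17B. At 72.1 and 75.7 CPM with PBS, 115 CPM in rIL-17B replicate 1 and 75.4 CPM in replicate 2, its groups overlapped (log2 fold change 0.28, SE 0.20, adjusted p = 0.661 from edgeR's test). LAMA3 on chromosome 18 (23689443 to 23956222, ENSG00000053747.16), the alpha chain of the same trimer, had 540, 382, 564 and 597 counts. Its level was 33.95 and 29.6 CPM in the PBS libraries against 38.6 and 34.01 CPM with rIL-17B. The groups were separated by less than 0.1 CPM and overlapped once TMM factors were applied, and the log2 fold change was 0.12 (SE 0.13, adjusted p = 0.698 from edgeR's test).

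LAMC3, a gamma chain found away from most basement membranes, had 48.1 and 49.7 CPM with PBS, 95.4 CPM in rIL-17B replicate 1 and 53.4 CPM in replicate 2 (log2 fold change 0.52, SE 0.28, adjusted p = 0.661 from edgeR's test). LAMC1 and LAMC3 thus had opposite signs, and LAMC1 counts exceeded LAMC3 counts 16.9 and 17.1-fold with PBS, 3.004-fold in rIL-17B replicate 1 and 13.4-fold in replicate 2.

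LAMA5 on chromosome 20 (62307955 to 62367312, ENSG00000130702.15), the main alpha chain of adult epithelia, differed from the other abundant members. It had 4757 and 5326 counts in the PBS libraries against 4822 and 5174 counts with rIL-17B, which is 299, 413, 329.9 and 295 CPM. Here PBS replicate 2 was the high library, 1.38-fold above PBS replicate 1, and the rIL-17B libraries, at 295 and 329.9 CPM, lay on either side of PBS replicate 1. The log2 fold change was -0.26 (SE 0.20, adjusted p = 0.661 from edgeR's test). LAMA5 overlaps ADRM1, which had 563 to 802 counts, and LAMA5-AS1, which had 6 to 9 counts, both on the other strand.

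The makeup of the laminin mRNA pool therefore differed most between rIL-17B replicate 1 and the other libraries. For rIL-17B replicate 1, the chi-square per degree of freedom over the 9 members was 507 and 387 against PBS replicates 1 and 2. Against rIL-17B replicate 2 it was 418. The PBS libraries also differed from each other, with 28.5. For rIL-17B replicate 2 against PBS replicates 1 and 2 it was 10.9 and 28.3. The 9 members summed to 43509 and 37738 counts with PBS and to 21733 and 44455 counts with rIL-17B, or 2736, 2928, 1487 and 2532 CPM. LAMC1 held 29.7% of these counts (95% Wilson interval 29.3 to 30.2) and 29.1% (28.6 to 29.6) in the PBS libraries, 19.3% (18.8 to 19.8) in rIL-17B replicate 1 and 28.2% (27.8 to 28.6) in replicate 2. LAMA5 held 10.9% (10.6 to 11.2) and 14.1% (13.8 to 14.5) with PBS, 22.2% (21.6 to 22.7) in rIL-17B replicate 1 and 11.6% (11.3 to 11.9) in replicate 2. These intervals treat each read as independent and leave out the spread between libraries. They are too narrow where copies made by PCR were counted separately. Per length, LAMA4 made up 55.0% and 48.9% of the alpha chain level with PBS, 28.8% in rIL-17B replicate 1 and 52.4% in replicate 2. LAMA5 made up 34.4% and 42.5% with PBS and 56.2% and 36.9% in rIL-17B replicates 1 and 2. LAMA4 was thus the leading alpha chain gene in 3 libraries and LAMA5 in 1. LAMB3 made up 9.62% and 9.64% of the beta chain level with PBS and 26.1% and 10.5% with rIL-17B. Of the summed level of LAMC1 and LAMC3, LAMC3 made up 6.15% and 6.07% with PBS and 26.9% and 7.64% with rIL-17B. In every library the summed beta chains exceeded LAMC1 and LAMC3 together per length, by 1.55 and 1.55-fold with PBS and by 2.02 and 1.66-fold with rIL-17B, and the summed alpha chains were below these 2 gamma chains, at 0.590 and 0.630 of their level with PBS and 0.880 and 0.607 with rIL-17B. With the length of the longest transcript, the alpha chains were above these gamma chains in rIL-17B replicate 1, at 1.13 of their level. The alpha chain genes are the longer ones, with 10358 to 15872 bases of exon against 4688 to 8406 for the beta and gamma chain genes. If reads favor the poly(A) end, division by the full length lowers long genes more, so the order of the classes may partly reflect length. This was not tested. Over the 9 members, where LAMC1 is the only gamma chain gene, the alpha chains were at 0.629 and 0.671 of its level with PBS, above it in rIL-17B replicate 1 at 1.20 and below it in replicate 2 at 0.657, and the beta chains exceeded it by 1.65-fold in both PBS libraries and by 2.76 and 1.80-fold with rIL-17B.

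**Figure D3:**
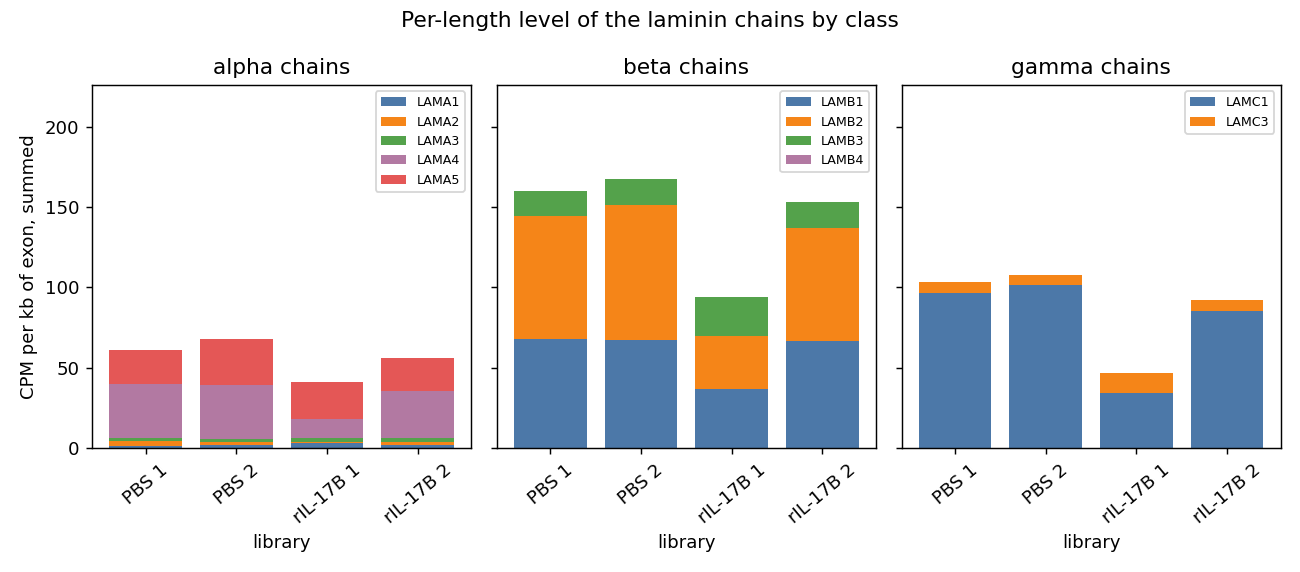
Stacked bars of CPM per kb of exon for the alpha chain genes, the beta chain genes and the gamma chain genes LAMC1 and LAMC3 in each library, with the chain genes in color. rIL-17B replicate 1 has the lowest bar in each class, and within its bars LAMA5, LAMB3 and LAMC3 take a larger part than in the other libraries.

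Leaving out 1 library at a time showed which values rest on rIL-17B replicate 1. Without it, the lone rIL-17B library is assumed to vary like the PBS libraries, and edgeR's test called 1 member and 504 of 17103 genes (2.95%, of which 0.643% were higher and 2.3% lower). That member was LAMA5 (log2 fold change -0.27, SE 0.08, adjusted p = 0.0436 from edgeR's test), for which PBS replicate 1 at 299 CPM and rIL-17B replicate 2 at 295 CPM were nearly equal. The log2 fold changes of the other 8 members then lay between -0.34 for LAMA2 and 0.14 for LAMA1, that of LAMC1 was -0.22 and that of LAMB1 -0.02. Without rIL-17B replicate 2, 8 of 9 members were called, all except LAMA3, and so were 55.1% of all genes tested (23.2% higher and 31.9% lower). In that fit, which compares 1 library with PBS and not the conditions, 6 members were lower, led by LAMA2 at -4.41, LAMC1 at -1.67 and LAMA4 at -1.63, and LAMA1 at 0.92 and LAMB3 at 0.50 were higher. With PBS replicate 1 or PBS replicate 2 left out in turn, the log2 fold change of LAMC1 was -0.80 or -0.75. That of LAMA2 was -1.09 or -1.39.

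Laminins act through surface receptors. Of 11 receptors and surface partners, all tested, 5 had a log2 fold change above 0 and 6 below. Their median was -0.00 and 0 were called. Over all genes tested, 7753 were above 0 and 8608 below. The smallest unadjusted p belonged to SDC1 (syndecan-1), DAG1 (dystroglycan, which binds the globular domains of alpha chains) and ITGA7 (the laminin-binding integrin subunit of muscle). SDC1 had 68.8 and 69.8 CPM in the PBS libraries against 121 and 82.9 CPM with rIL-17B (log2 fold change 0.47, SE 0.18, adjusted p = 0.661 from edgeR's test). DAG1 had 345 and 374 CPM in the PBS libraries against 658 and 410.4 CPM after rIL-17B, for a log2 fold change of 0.49. ITGA7 had 19.1 and 29.7 CPM in the PBS libraries against 1.85 and 13.3 CPM after rIL-17B, for a log2 fold change of -1.70.

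Of the 9 basement membrane partners, 7 were below 0 and 2 above, with a median log2 fold change of -0.82 and 0 called. Both rIL-17B libraries were lower than both PBS libraries, by library totals, for 7 of them, and 27.5% of all genes tested did the same. The 3 with the smallest p were NID2, COL18A1 and HSPG2. NID2 (nidogen-2, which links laminin to type IV collagen) had 232 and 243 CPM in the PBS libraries against 444 and 262 CPM after rIL-17B, for a log2 fold change of 0.48. HSPG2 (perlecan, a heparan sulfate proteoglycan) had 645 and 681 CPM in the PBS libraries against 281 and 574 CPM after rIL-17B, for a log2 fold change of -0.68. COL18A1 had between 37.5 and 44.5 CPM and a log2 fold change of -0.21. Relative to the PBS mean, the median log2 ratio of (CPM + 0.5) in rIL-17B replicate 1 was -1.77 for these partners and -0.88 for the laminin chain genes, and in replicate 2 it was -0.21 and -0.19. Over all tested genes these medians were 0.08 and -0.00.

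Of 5 proteases that can process laminin, 4 were tested, 1 above 0 and 3 below, with a median of -0.67 and 0 called. BMP1, which trims laminin chains and procollagens, had 131, 135, 116 and 124 CPM in PBS replicates 1 and 2 and rIL-17B replicates 1 and 2 and a log2 fold change of -0.22. TLL1, its relative, had 8.17, 9.23, 14.4 and 9.46 CPM (0.37), and the gelatinase MMP2 had 1473, 1378, 89.2 and 1235 CPM (-1.12). MMP14, which activates MMP2 and was singled out after its values were seen, had 9699 and 8253 counts in the PBS libraries, 8 counts in rIL-17B replicate 1 and 8826 in replicate 2.

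**Figure D4:**
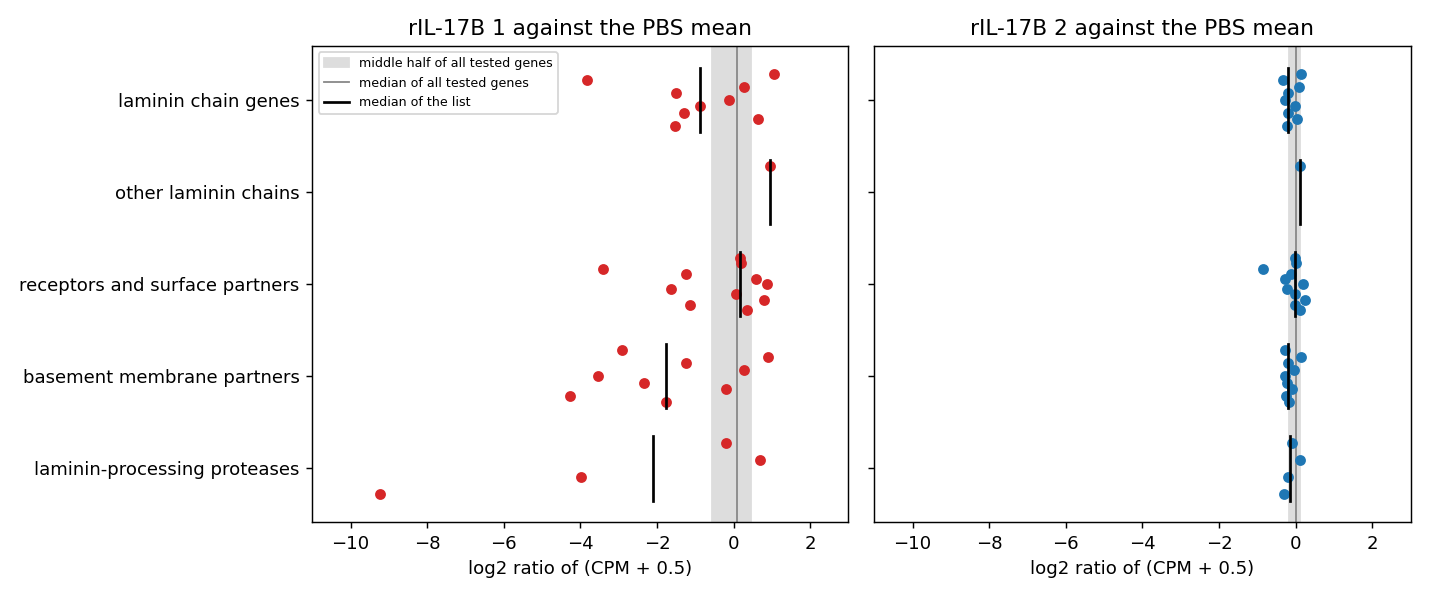
log2 ratio of (CPM + 0.5) to the PBS mean for each tested gene of the laminin chain list, the chain gene LAMC3 and the partner lists, for rIL-17B replicate 1 (left) and replicate 2 (right), with black bars at list medians and a gray band from the lower to the upper quartile of all tested genes. In replicate 1 the laminin chain genes spread from -3.82 to 1.04, and in replicate 2 from -0.32 to 0.14.

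Marker genes of other kinds also differed between rIL-17B replicate 1 and the other libraries. From the PBS libraries to rIL-17B replicate 1, the summed fibroblast markers went from 14288 to 14453 down to 269 CPM. The summed mesenchymal markers VIM, CDH2 and ZEB1 went from 958 to 968 down to 365 CPM. In rIL-17B replicate 1, 5 of 5 fibroblast and 3 of 3 mesenchymal markers were at least 2-fold below the PBS mean. Of all genes tested, 20.7% were at least 2-fold lower there. The summed epithelial markers went from 777 to 783 up to 1818 CPM, of which KRT8 made up 1457 and KRT18 355 CPM. EPCAM had 78 counts in rIL-17B replicate 1 against 54 and 39 with PBS. CDH1 had 11 against 7 and 8, and KRT19 had 1 against 47 and 43. In rIL-17B replicate 2 the sums were 12294, 820.3 and 1001 CPM. The endothelial markers PECAM1, CDH5 and VWF, none of them at 0 counts, summed to 13.2 and 17.5 CPM with PBS. They summed to 1.03 CPM in rIL-17B replicate 1, from 6, 6 and 3 counts, and to 14.5 CPM in replicate 2. In replicate 1, 3 of 3 were at least 2-fold below the PBS mean, as were 20.7% of all genes tested. The part of these differences in the laminin values was not tested.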

How the data were processed

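RNA of HGC-27 cells was sequenced in 4 libraries after Smart-seq2 cDNA synthesis, which primes with oligo-dT and amplifies by PCR, so reads can favor the ends of the long laminin mRNAs nearest the poly(A) tail. The authors deposited counts, the number of reads per gene name, without normalization, and names with 0 counts were not listed. The submitters' processing notes name hg38, Bowtie2 2.2.3, HISAT2 2.1.0, TopHat2 and HTSeq 0.6.0 without roles. The annotation and the strand setting are not given in the sources used here. Names missing from a library were set to 0, names on repeated lines, which carried equal counts, were kept once, and between 22 and 25 entries per library with names turned into dates were left out. The libraries then held 12888029 to 17555879 counts.

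Groups came from the labels. The test was that of edgeR 4.0.16, run in R 4.3.3 (TMM factors of 0.97 to 1.07, filterByExpr, quasi-likelihood F test, two-sided, Benjamini-Hochberg adjustment over 16361 genes, threshold 0.05). It was also run on simulated counts with a common spread taken from the PBS libraries. No simulated library was made to stand apart as rIL-17B replicate 1 did, so that run does not bear on the calls here. SE is the log2 fold change divided by the square root of F. CPM is the count over the library total, without TMM factors unless stated. Lengths are the union of annotated exons in GENCODE 29, and start windows are from RefSeq. DESeq2 1.42.0 was an alternative. Tables used Python 3.11.15 and scipy 1.17.1. The members, lists and tests were chosen with earlier results of these data known. Named were the 9 members, LAMB4, LAMC3, the 3 genes of each partner list with the smallest p, and the 3 genes most like the member with the highest CPM and the member with the widest range. A few genes and 1 gene list are not reported here. The chi-square compares counts of 2 libraries over genes.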

Additional observations from a re-analysis of the deposited data

How the results depend on the processing

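Under upper-quartile normalization, unscaled library totals, no filter, a minimum of 10 counts per library, the replicate block and DESeq2, 0 genes and 0 laminin chain genes passed the adjusted p of 0.05, and at a threshold of 0.1 edgeR called 0 genes over the 4 libraries. Each member kept the sign of its log2 fold change in all these settings and when 1 library was left out. With the replicate block, 173 genes had an unadjusted p under 0.05, 0 of them members, and the log2 fold change of LAMA2 was -2.27 and that of LAMC1 -0.95. The deviations of same-numbered libraries correlated with r = 0.08 over 16361 genes, and the labels do not say that they were handled together. The number of genes with an unadjusted p under 0.05 was 190 with upper-quartile normalization, 161 with unscaled totals, 879 with no filter, 462 with the minimum of 10 and 457 by DESeq2. Leaving out 1 library gave between 0 and 9489 genes called and between 0 and 8 members. In these fits LAMC1 ranged from -1.67 to -0.22, LAMA2 from -4.41 to -0.34, LAMA1 from 0.14 to 0.92 and LAMA5, through PBS replicates 1 and 2, from -0.47 to -0.02.

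Members higher in both rIL-17B than in both PBS libraries numbered 2 by library totals, and 1 (LAMA1) with TMM factors or upper-quartile scaling, of which the latter was chosen after the data were seen. Members lower in both numbered 5, 6 with TMM factors (LAMA5 was added) and 5 with upper-quartile scaling. With the longest annotated transcript as length, LAMA4 had 59.0 in place of 33.4 CPM per kb with PBS, the means of LAMA3, LAMA1 and LAMA2 were 2.98, 2.51 and 2.47, LAMB1 passed LAMB2 in PBS replicate 1, and in rIL-17B replicate 2 LAMB1 with 94.3 passed LAMC1 with 90.6 and LAMB2 with 85.1. Sums over 11 chain genes, in place of the 9, were also chosen after the data were seen.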
